A study of Mus musculus with 2 samples.

Results

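The cells described here are mouse corneal epithelial cells with a high share of immediate early RNA, called early-high cells below. They were chosen by measured values: barcodes in which 500 genes or more were detected, and whose mitochondrial share stayed below 20% of UMIs (unique molecular identifiers, 1 for each captured RNA), were kept, and a cell counted as corneal when Krt12 and Krt15 together gave at least 5 UMIs and Krt12 made up more than 0.8 of them. Over both libraries pooled, the 15% of corneal cells with the largest share of their UMIs from Fos, Fosb, Atf3, Zfp36 and Dusp1 were taken. This gave 619 of 4125 corneal cells, out of 6188 kept cells and 6752 barcodes. Because these 5 genes selected the cells, their levels are given as a description and are not results, and they were removed from the counts before any other gene was compared.

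All samples belong to 1 group, the corneal epithelium of CycB1-GFP mice, with 2 replicates. In this reporter line Cyclin B1 expression is tagged with a green fluorescent protein, so the sort for live fluorescent cells favours cycling cells. The epithelium was peeled after an overnight digestion in cold Dispase and dissociated in warm trypsin before sorting and 10x Genomics 3' sequencing. There was no treated group, and every sample was dissociated in the same way, so early RNA made in the tissue and early RNA made during dissociation cannot be told apart. The labels used here give no age or sex, and nothing in them says that the replicates came from separate animals. The p-values below therefore refer to these 2 libraries only.

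Immediate early genes are transcribed within minutes of a signal such as a growth factor, a wound or a change of temperature, without new protein synthesis. Fos and Fosb encode AP-1 subunits that pair with Jun proteins, Atf3 encodes a stress-induced repressor of the ATF family, Zfp36 encodes a protein that binds AU-rich messages and speeds their decay, and Dusp1 encodes a phosphatase that switches off MAP kinases. The last pair of genes acts as a brake on the response that induces them. These genes respond in skin and corneal epithelium to wounding, and they also respond to enzymatic dissociation of tissue.

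The early-high cells came almost wholly from 1 library. Library 1 held 610 of them (26.5% of its 2304 corneal cells, exact binomial 95% interval 24.7 to 28.3%) and library 2 held 9 (0.494% of 1821, interval 0.226 to 0.936%). These intervals cover counting error only. The summed level of the 5 genes per corneal cell had a median of 3553 CPM in library 1 (UMIs of these genes relative to all UMIs, scaled to 1000000) and 1012 in library 2, with middle ranges of 1491 to 5949 and 353 to 1883. The last cell inside the selection stood at 5801 CPM (47 of 8102 UMIs) and the first outside at 5799 (25 of 4311 UMIs), and 117 early-high and 118 other cells lay within 10% of that level. The cut runs through a continuous range of values, as the plot of levels per cell shows. The files do not say which library is which replicate, and 5 barcode sequences occurred in both libraries.

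**Figure D1:**
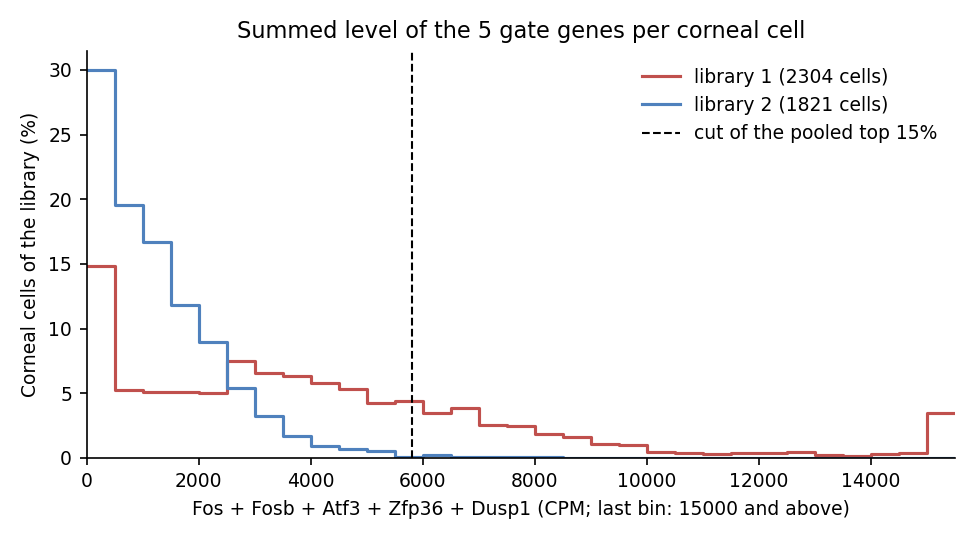
Share of each library's corneal cells (y axis, percent) by the summed level of Fos, Fosb, Atf3, Zfp36 and Dusp1 per cell (x axis, CPM, bins of 500 with all cells at 15000 and above in the last), with the selection cut as a dashed line. The median was 3553 CPM in library 1 and 1012 in library 2, and 610 cells of library 1 but 9 of library 2 lie past the cut.

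With 9 cells in library 2, the selection as stated allows no replicated test. It is therefore described in library 1, as 610 early-high cells against 1694 other corneal cells, with no p-value. A companion comparison took the 15% with the highest share within each library, which gave 346 cells in library 1 and 273 in library 2, and tested them against the other corneal cells of the same library with edgeR. All 346 were also early-high cells by the pooled selection, as were 9 of the 273. The lowest cell of the companion selection stood at 7440 CPM of the 5 genes in library 1 and at 2357 CPM in library 2, so it compares high with low cells inside each library rather than cells at 1 common level.

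The promoters of 2 of the 5 selecting genes and of 4 genes described below are shown because they carry known binding sequences of stress and growth signalling. The stretches are from RefSeq promoters on GRCm38.p6, each written 5' to 3' on the gene's own strand with the motif in capitals. The first 3 carry the cAMP response element (CRE, TGACGTCA), which CREB and ATF family factors bind, in Dusp1 (chr17:26508578-26508645, minus strand), Btg2 (chr1:134079284-134079351, minus strand) and Ppp1r15a (chr7:45526269-45526310, minus strand). The stretch of Zfp36 (chr7:28379247-28379316, minus strand) carries a CArG box, which serum response factor binds. The stretches of Hspa1a (chr17:34972223-34972290, minus strand) and Hspa1b (chr17:34959305-34959372, minus strand) carry a pair of facing heat shock factor units, and their letters are the same in both genes.
Dusp1: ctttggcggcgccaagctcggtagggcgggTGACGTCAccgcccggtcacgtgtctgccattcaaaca
Btg2: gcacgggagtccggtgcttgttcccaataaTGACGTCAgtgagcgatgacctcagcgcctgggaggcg
Ppp1r15a: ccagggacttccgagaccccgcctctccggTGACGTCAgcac
Zfp36: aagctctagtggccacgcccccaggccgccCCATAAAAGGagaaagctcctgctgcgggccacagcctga
Hspa1a: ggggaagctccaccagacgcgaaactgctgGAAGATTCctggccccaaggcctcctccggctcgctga
Hspa1b: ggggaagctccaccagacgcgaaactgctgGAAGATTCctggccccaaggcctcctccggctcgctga

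In RefSeq promoters reaching from 250 bases before to 50 bases after a gene's start, the CRE letters occurred in 4 of the 28 promoters of early genes that passed the test below (14.3%; genes Btg2, Errfi1, Maff and Ppp1r15a) and in 588 of all 32851 promoters (1.79%). Of those 28 genes 22 matched the promoter table, some with more than 1 start. The AP-1 site (TGANTCA) occurred in 3 of the 28 promoters (10.7%) and in 7.81% of all. The CArG box occurred in 0 of the 28 and in 1.63% of all. Among all genes of the 3 early lists, called or not, the CRE letters occurred in 6 of 73 promoters (8.22%). There the AP-1 site occurred in 4 (5.48%) and the CArG box in 6 (8.22%). The heat shock pair (GAANNTTC or TTCNNGAA, which covers both strands) occurred in 13 of 23 promoters of heat shock chaperones (56.5%) and in 15.1% of all. These are matches of letters in a short window, described without a test.

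The selection itself makes the levels of the 5 selecting genes high, so they are given as a description. In library 1 the early-high cells held Fos at 3188 CPM against 1044 in the other corneal cells, Fosb at 2494 against 822, Atf3 at 1013 against 232, Dusp1 at 872 against 298 and Zfp36 at 635 against 197. The 9 cells of library 2 held Fos at 3980 CPM, a higher level than in library 1, and Fosb at 995, a lower one. After every cell was thinned to 2000 UMIs, which left out 152 early-high and 113 other cells of library 1, the 5 genes gave a median of 15 UMIs per early-high cell (middle range 12 to 18) and 5 per other cell (1 to 8). When each gene in turn was left out of the selection, its level in the cells chosen by the other 4 was 2.51 to 3.50 times that in the rest in library 1. Within library 2, by the companion selection, these ratios ran from 1.66 for Zfp36 to 2.57 for Fosb.

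The early-high cells of library 1 were shallower than their neighbours. Their median was 4875.5 UMIs and 1873 detected genes, against 6130.0 UMIs and 2256 genes in the other corneal cells, and their mitochondrial share was 3.04% against 2.38%. In the companion selection the gap widened in library 1 (3081.5 against 6060.5 UMIs, 4.40% against 2.40% mitochondrial), while in library 2 the selected cells were slightly deeper (6588 against 6320 UMIs, 3.20% against 3.13%). Malat1, a long noncoding RNA kept in the nucleus, stood at 24153 CPM in the early-high cells of library 1 and 14403 in the others, and in the companion selection at 15402 against 13584 CPM in library 2. The part of depth, nuclear RNA and mitochondrial share in the results was not tested as a cause, and values are given below with other cells drawn to match the depth of the early-high cells, with all cells thinned, and for library 2.

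In library 1, 38 of 5922 genes measured at 20 CPM or more (0.642%) were at least 2-fold higher in the early-high cells, and 45 (0.76%) were at least 2-fold lower. Of the 38 genes, 13 were on the 3 lists of early genes described next, and of the 45 none was. Against other cells matched on depth, all 38 stayed higher and 28 stayed past 2-fold, while all 45 stayed lower and 21 stayed past 2-fold. In thinned cells, selected again, 38 and 43 kept their direction. Within library 2, by the companion selection, 32 of the 38 and 37 of the 45 had the same direction. In the companion comparison edgeR called 103 genes higher and 82 lower of 10956 tested (0.94% and 0.748%), and 28 of the 103 were early genes; 1018 genes had an unadjusted p below 0.05. The fit has 1 residual degree of freedom, so edgeR's spread for a gene is largely shared across genes. A small p therefore does not show that the libraries agree for that gene. The standard error was 0.14 for Ifitm3 (log2 ratios -0.62 and -0.53) and 0.15 for Hspa1a (1.09 and 0.12). Without the library as a block edgeR called 0 higher and 0 lower, although 420 genes had an unadjusted p below 0.05. With DESeq2 the calls were 15 higher and 11 lower of 3813, each of them also an edgeR call. The number of calls moved with the settings, from 15 to 122 higher and from 11 to 126 lower with the block kept, and it fell to 27 and 32 when cells with over 10% mitochondrial UMIs were left out.

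**Figure D2:**
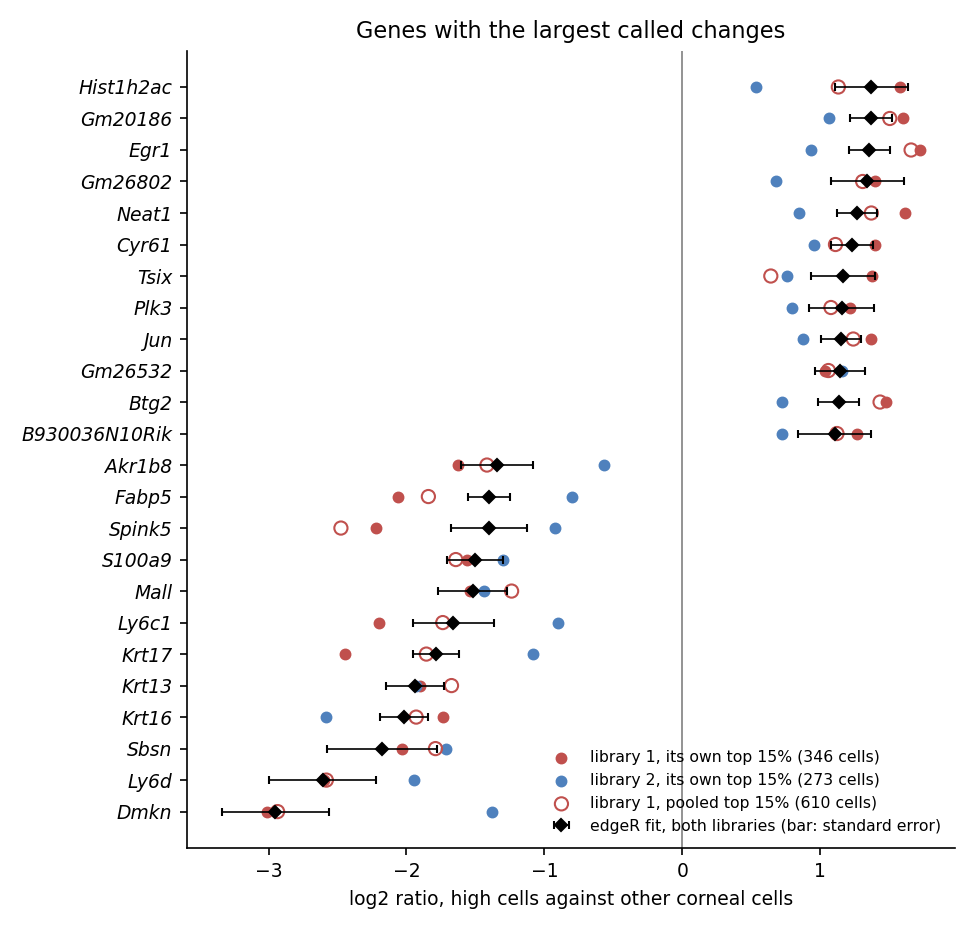
Log2 ratios of the 12 genes with the largest called rise and the 12 with the largest called fall among genes at 20 CPM or more in the higher side of the summed libraries, in high against other corneal cells (x axis): edgeR's fit over both libraries with its standard error (black), the top 15% of library 1 and of library 2 (filled) and the 610 early-high cells of library 1 (open). The same direction in both libraries was a condition for choosing the 24 genes, and the edgeR values run from -2.95 for Dmkn to 1.37 for Hist1h2ac.

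Of 11 other AP-1 factors tested, 4 rose, all 3 Jun genes among them, and 0 fell, against 0.94% and 0.748% of all genes. Jun, the main partner of Fos (GRCm38, chr4:95049034-95052222, minus strand), stood at 4601 CPM in the early-high cells of library 1 and 1947 in the others. In the companion selection Jun stood at 5624 against 2180 CPM in library 1 and at 2039 against 1113 in library 2 (edgeR log2 fold change 1.15 ± 0.15 SE, adjusted p = 2.55e-12). Selected cells were above other cells in both libraries, and selected cells of library 2 were below the unselected cells of library 1. Jund, a more constitutive partner, stood at 1711 against 767 CPM in library 1 and 821 against 481 in library 2 (edgeR log2 fold change 1.00 ± 0.14 SE, adjusted p = 2.61e-09). Junb, which often opposes Jun in keratinocytes, stood at 1339 against 661 CPM and 620.3 against 416 (edgeR log2 fold change 0.83 ± 0.14 SE, adjusted p = 2.86e-06). Maff, a small Maf protein that lacks an activation domain, was scarce, at 20.8 against 7.67 CPM in library 1 and 13.6 against 9.59 in library 2 (edgeR log2 fold change 0.99 ± 0.29 SE, adjusted p = 0.0434), and it passed in 4 of 18 alternative settings. Fosl1, Fosl2, Mafg, Mafk, Jdp2, Atf2 and Atf7 did not pass. The median log2 ratio over the 8 measured members in library 1 was 0.53, against -0.05 over all 5922 genes.

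The rise reached most of the other immediate early transcription factors. Of 21 tested, 13 rose and 0 fell (Egr1, Ier2, Ier3, Ier5, Nr4a1, Nr4a2, Klf2, Klf4, Klf6, Klf9, Csrnp1, Btg2 and Bhlhe40), against 0.94% and 0.748% of all genes. All 18 members measured in library 1 were above 0, with a median log2 ratio of 0.75. Egr1, a zinc finger factor and the textbook read-out of MAP kinase activity (chr18:34859823-34864984, plus strand), stood at 235 against 70.6 CPM in library 1 and 254 against 132 in library 2 (edgeR log2 fold change 1.36 ± 0.15 SE, adjusted p = 2.22e-16). Unlike Jun, its level in the selected cells was about as high in library 2 as in library 1. Btg2, an antiproliferative gene whose promoter stretch is shown above, stood at 248 against 88.2 CPM in library 1 and 196 against 119 in library 2 (edgeR log2 fold change 1.14 ± 0.15 SE, adjusted p = 2.19e-11). Ier2, a small nuclear protein gene, stood at 1300.2 against 510.2 CPM and 480.4 against 294 (edgeR log2 fold change 1.07 ± 0.14 SE, adjusted p = 1.36e-10).

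The Krüppel-like factors behaved less uniformly. Klf6, induced by injury in many epithelia, stood at 561 against 254 CPM in library 1 and 242 against 133 in library 2 (edgeR log2 fold change 1.04 ± 0.15 SE, adjusted p = 7.02e-10). Klf4, which drives the barrier programme of surface epithelia and is high in cornea, stood at 1704 against 945 CPM in library 1 and only 852 against 788 in library 2 (edgeR log2 fold change 0.52 ± 0.14 SE, adjusted p = 0.0256). The call rests mainly on library 1, where the log2 ratio was 0.85 against 0.11 in library 2, and it passed in 5 of 19 alternative settings. Ier3, which protects cells from apoptosis, showed a smaller difference of the same shape, with log2 ratios of 0.69 and 0.22 (edgeR log2 fold change 0.50 ± 0.15 SE, adjusted p = 0.0442). Ier3 passed in 6 of 19 alternative settings.

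The list of feedback and early signalling genes holds brakes on signalling beside genes with other roles, such as matrix and cytoskeletal ones. Of 28 members tested, 11 rose and 0 fell (Zfp36l1, Nfkbia, Nfkbiz, Trib1, Errfi1, Rhob, Gadd45b, Ppp1r15a, Sik1, Plk3 and Cyr61), against 0.94% and 0.748% of all genes. All 20 measured in library 1 were above 0, with a median log2 ratio of 0.68. Cyr61, a matricellular protein and target of YAP and serum response factor (chr3:145646976-145649981, minus strand), stood at 348 against 131 CPM in library 1 and 125 against 64.2 in library 2 (edgeR log2 fold change 1.23 ± 0.15 SE, adjusted p = 4.00e-13). Nfkbiz, an atypical IκB protein that shapes NF-κB output, stood at 371 against 145 CPM and 174 against 106 (edgeR log2 fold change 1.08 ± 0.15 SE, adjusted p = 2.27e-10). Ppp1r15a, which restores translation after stress and has the CRE stretch shown above, had log2 ratios of 1.30 and 0.73 in the companion selection and 1.10 in the early-high cells of library 1. Plk3, a stress-responsive kinase, was scarcer, at 50.01 against 20.9 CPM in library 1 and 14.2 against 7.74 in library 2 (edgeR log2 fold change 1.16 ± 0.24 SE, adjusted p = 2.10e-04). The MAP kinase brakes Dusp6, Spry1 and Spry2, singled out after their values were seen, had edgeR log2 fold changes of 0.42, 0.46 and 0.45 and did not pass (adjusted p = 0.388, 0.556 and 0.561). Nfkbia, the inhibitor that ends an NF-κB response, and Zfp36l1, a relative of Zfp36, had log2 fold changes of 0.68 and 0.69 (edgeR adjusted p = 4.45e-04 and 3.36e-04).

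All 28 early genes called higher were above the other cells in each library, with edgeR log2 fold changes from 0.50 to 1.38, and 26 of the 28 had the larger log2 ratio in library 1. In thinned cells the 3 early lists together gave a median of 28 UMIs per early-high cell of library 1 (middle range 23 to 35) and 15 per other cell (10 to 21). In the companion selection the medians were 33 against 16 in library 1 and 17 against 11 in library 2. Across thinned corneal cells the summed early genes tracked the 5 selecting genes, with Spearman's rho of 0.74 over 2039 cells of library 1 and 0.53 over 1622 cells of library 2; the cells of a library share its preparation, and at 2000 UMIs both sums are thinly sampled. Among the early-high cells of library 1 alone rho was 0.38 over 458 cells.

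**Figure D3:**
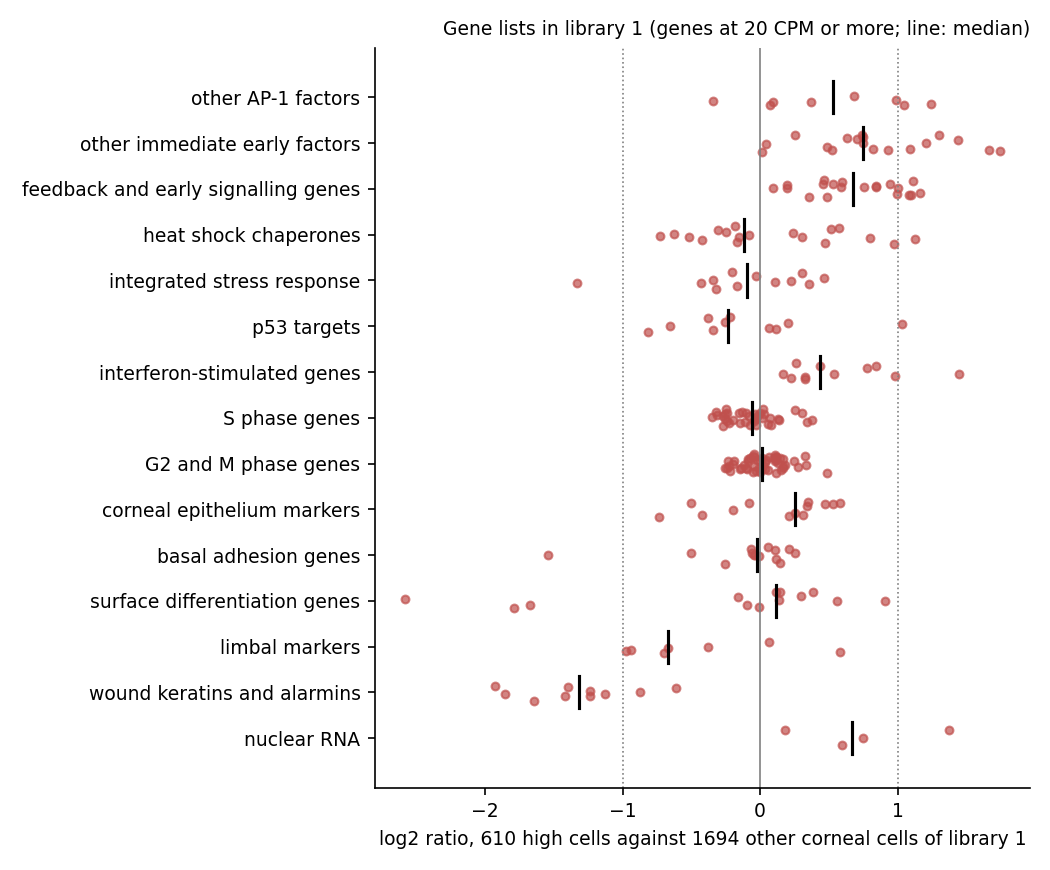
Log2 ratio of 610 early-high against 1694 other corneal cells of library 1 (x axis) for each gene at 20 CPM or more of 15 gene lists, with the list median as a black line and 2-fold as dotted lines; there is no test in this comparison. Medians were 0.75 for the other immediate early factors and -1.32 for wound keratins and alarmins, with S phase genes at -0.06 and G2 and M phase genes at 0.02.

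Most heat shock genes were not called, but the share called was above that over all genes. Of 20 chaperones tested, 3 rose (Hspa1a, Hspa1b and Dnajb1) and 1 fell (Hspd1), against 0.94% and 0.748% of all genes. The list's median log2 ratio in library 1 was -0.12. Other stress-inducible members, singled out after their values were seen, were not called: Hsph1 and Bag3 had log2 ratios of -0.25 and -0.08 in library 1, and Hspb1 and Dnajb4 of 0.47 and 0.58 (edgeR adjusted p = 0.700, 0.974, 0.576 and 0.0797 in that order). Dnajb1, the inducible HSP40 that works with HSP70 (chr8:83608193-83612653, plus strand), stood at 455 against 176 CPM in library 1 and 214 against 145 in library 2 (edgeR log2 fold change 1.01 ± 0.15 SE, adjusted p = 4.62e-09). Hspa1a, an inducible HSP70 gene, stood at 1206 against 564 CPM in library 1 but at 139.9 against 129 in library 2, with log2 ratios of 1.09 and 0.12 (edgeR adjusted p = 7.78e-04). Its call rests on library 1, and it passed in 7 of 19 alternative settings. Hspa1b gave log2 ratios of 1.09 and 0.20 (edgeR adjusted p = 3.38e-04), but it is a near copy of Hspa1a, as the identical promoter stretches show, and short reads may be split between them. Hspd1, the mitochondrial chaperonin, stood at 173 against 319.7 CPM in library 1 and 201 against 230.3 in library 2 (edgeR log2 fold change -0.50 ± 0.15 SE, adjusted p = 0.0481), and passed in 3 of 19 settings. In thinned cells the 3 called genes together gave a median of 3 UMIs per early-high cell of library 1 and 2 per other cell. The unselected cells of library 1 thus held more than the unselected cells of library 2, where the median was 1.

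Genes of other stress lists were mostly not called. Of 19 genes of the integrated stress response, which ATF4 drives when translation is limited, 0 rose and 3 fell in edgeR (Asns, Chac1 and Nupr1). The falls are a larger share than the 0.748% of all genes called lower. In the companion selection 9 of the 19 were higher in library 1 and 3 in library 2. Asns, asparagine synthetase, stood at 11.5 against 22.5 CPM in library 1 and 14.2 against 33.7 in library 2 (edgeR log2 fold change -1.11 ± 0.26 SE, adjusted p = 0.0029). Nupr1, a stress-induced chromatin protein gene, had an edgeR log2 fold change of -1.18 ± 0.29 SE (adjusted p = 0.0049). Its log2 ratio in thinned cells of library 1, selected again, was -0.03. Chac1, which degrades glutathione, was under 20 CPM in all 4 sums. None of 13 p53 targets was called by edgeR. With 0.94% of all genes called higher, lists of this size would hold few or no such calls at the background share, and Ppp1r15a, which also belongs to the stress response, is counted on the feedback list above. Of the p53 targets, the most abundant, Perp and Phlda3, had log2 fold changes of -0.15 and -0.30 (edgeR adjusted p = 0.826 and 0.511). Cdkn1a, the cell cycle inhibitor p21, was singled out after its values were seen: its log2 ratio was 1.07 in library 1 and -0.32 in library 2. Of 15 cytokines and growth factors tested, 1 rose, Hbegf, an EGF receptor ligand that drives corneal wound closure, with log2 ratios of 0.91 and 0.23 (edgeR adjusted p = 0.0216). Hbegf passed in 5 of 19 alternative settings.

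Wound keratins and alarmins were lower in the early-high cells. All 10 members measured in library 1 were below 0, 8 of them past 2-fold, with a median log2 ratio of -1.32. It was -0.95 against cells matched on depth and -0.77 in thinned cells, selected again. In the companion comparison 7 of 15 fell and 0 rose (Krt6a, Krt6b, Krt16, Krt17, S100a8, S100a9 and Akr1b8), against 0.748% and 0.94% of all genes. Krt16, a keratin induced in wounded and hyperproliferative epidermis (chr11:100246091-100248902, minus strand), stood at 107 CPM in the early-high cells of library 1 and 409 in the others, and in the companion selection at 112 against 373 in library 1 and 16.4 against 103 in library 2 (edgeR log2 fold change -2.02 ± 0.17 SE, adjusted p = 5.39e-27). Selected cells were below the others of their own library in both, although unselected cells of library 2 were close to the selected cells of library 1. Krt17, its close neighbour on chromosome 11, stood at 72.3 against 399 CPM and 48.7 against 104 (edgeR log2 fold change -1.79 ± 0.17 SE, adjusted p = 4.64e-22), and DESeq2 did not call it.

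Krt6a, the partner of Krt16 (chr15:101689910-101694307, minus strand), stood at 725 against 1792 CPM in library 1 and 369.9 against 796 in library 2 (edgeR log2 fold change -1.17 ± 0.15 SE, adjusted p = 1.11e-12). Krt6a and Krt6b, like Krt16 and Krt17, are similar in sequence and may share reads. S100a9, an alarmin subunit released on injury, stood at 80.02 against 238 CPM in library 1 and 5.67 against 15.4 in library 2 (edgeR log2 fold change -1.501 ± 0.20 SE, adjusted p = 1.05e-10). These UMIs were unevenly spread: in thinned library 1 cells the summed list had a median of 1 UMI per early-high cell and 2 per other cell, and the 10% of cells with the most held 67.2% and 52.2% of these UMIs. Fabp5, a fatty acid carrier of proliferating keratinocytes, was far higher in library 1 than in library 2 and lower in selected cells of each, at 1203 against 5033 CPM and 766 against 1332 (edgeR log2 fold change -1.40 ± 0.15 SE, adjusted p = 2.98e-17). It passed in 12 of 19 alternative settings, and DESeq2 did not call it.

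The surface differentiation genes had no common direction in library 1 and were mostly lower in library 2. Of 21 tested, 5 fell (Krt4, Krt13, Ivl, Sbsn and Ly6d) and 1 rose (Cldn4), against 0.748% and 0.94% of all genes. Of the 13 measured in library 1 there were 7 above 0 and 6 below, with a median log2 ratio of 0.11. In the companion selection 12 of the 21 were higher in library 1 and 1 in library 2, where the median log2 ratio was -0.35. The summed list in thinned cells of library 1 gave a median of 5 UMIs per early-high cell and 4 per other cell. Dmkn, Spink5, Mall and Ly6c1, described next, are not on that list. Ly6d, a small surface protein of stratified epithelia, stood at 4.62 against 33.0 CPM in library 1 and 2.27 against 11.6 in library 2 (edgeR log2 fold change -2.61 ± 0.39 SE, adjusted p = 7.39e-09). Dmkn, which encodes the secreted epidermal protein dermokine (chr7:30763756-30781063, plus strand), had the largest fall by edgeR among genes at 20 CPM or more, at 6.16 against 56.7 CPM in library 1 and 1.13 against 4.54 in library 2 (log2 fold change -2.95 ± 0.39 SE, edgeR adjusted p = 2.19e-11). Sbsn, a cornified envelope gene beside it, stood at 6.92 against 31.4 CPM and 1.13 against 5.98, and Spink5, a protease inhibitor of the outer epidermis, at 4.62 against 25.2 and 14.7 against 28.8. Dmkn and Sbsn were scarce in library 2. In the early-high cells of library 1 their log2 ratios were -2.93 and -1.79, and in thinned cells, selected again, they were -1.15 and -0.85. Mall, a raft protein gene, and Ly6c1, a surface protein gene, were among the 12 largest falls, with edgeR log2 fold changes of -1.52 and -1.66 (adjusted p = 4.18e-07 and 6.31e-06). Cldn4, a tight junction claudin, stood at 184 against 86.9 CPM in library 1 and at 32.3 against 36.2 in library 2, so its call (edgeR adjusted p = 0.011) depends on library 1.

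Some markers of the neighbouring epithelia fell. Of 6 conjunctival markers tested, 3 fell (Krt19, Krt4 and Krt13) and 0 rose, against 0.748% and 0.94% of all genes. The summed level of 12 conjunctival markers was 45.7 CPM in the early-high cells of library 1 and 138 in the others. These UMIs came from few cells: 7.42% of the thinned early-high cells and 10.2% of the others held any. Krt13, a mucosal keratin, stood at 22.3 against 86.3 CPM in library 1 and 18.1 against 72.0 in library 2 (edgeR log2 fold change -1.94 ± 0.21 SE, adjusted p = 4.26e-17). Its direction did not hold in thinned cells of library 1, selected again on the thinned counts, where the log2 ratio was 0.15. Of 11 limbal markers, which mark the stem cell zone at the corneal rim, 4 fell (Krt14, Krt15, Ifitm3 and Ifitm1), against 0.748% of all genes. Krt15 is part of the corneal selection and is no independent reading, and the other 7 were not called: Sox9, Trp63, Abcg2 and Gpha2, singled out after their values were seen, had log2 ratios of 0.58, 0.07, 0.10 and -0.38 in library 1. Krt14, the basal keratin, stood at 3339 against 7088 CPM in library 1 and 2910 against 3487 in library 2 (edgeR log2 fold change -0.64 ± 0.15 SE, adjusted p = 0.0015), and passed in 8 of 19 settings. Ifitm3 and Ifitm1 had similar log2 ratios in both libraries, -0.62 and -0.53 for Ifitm3 and -0.82 and -0.72 for Ifitm1 (edgeR adjusted p = 0.0128 and 1.38e-04). How wound keratins, limbal and surface genes that mark position in the tissue relate to the early genes was not tested.

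Corneal epithelium markers were abundant on both sides of the comparison: 14 genes summed to 41809 CPM in the early-high cells of library 1 and 36213 in the others. Krt12 is part of the corneal selection and is no independent reading, and without it the other 13 summed to 25590.3 CPM and 22255. None of 13 tested rose and 1 fell, against 0.94% and 0.748% of all genes. The 1 that fell was Ldha, lactate dehydrogenase (edgeR log2 fold change -0.56 ± 0.14 SE, adjusted p = 0.0108), which passed in 8 of 19 alternative settings. Markers of other cell types were at or near 0: 14 immune genes summed to 1.76 CPM in the early-high cells of library 1 with 11 of them at 0, 9 keratocyte genes to 0.703 CPM with 7 at 0, and 12 vessel, nerve and pigment cell genes to 6.68 CPM with 8 at 0. In the other corneal cells of library 1 these sums were 1.00, 0.454 and 5.00 CPM. The defining markers of those cell types were thus at or near 0 in cells high in early RNA.

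Few cell cycle genes were called. Over all genes 0.94% were called higher and 0.748% lower, so lists of this size would hold few or no calls at those shares. Of 42 S phase genes 0 were called by edgeR, and of 53 G2 and M phase genes 1 rose, Ttk, a mitotic checkpoint kinase (edgeR log2 fold change 0.59 ± 0.17 SE, adjusted p = 0.0408). Ttk passed in 5 of 19 alternative settings. The S phase genes with the highest levels, Tyms and Rrm2, which make DNA precursors, had log2 fold changes of -0.07 and -0.05 (edgeR adjusted p = 0.945 and 0.964). In thinned cells of library 1 the phase call was G2/M for 75.5% of 458 early-high cells (exact binomial 95% interval 71.3 to 79.4%) and for 71.2% of 1581 others (68.9 to 73.4%). In the companion selection the shares were 77.8% against 71.5% in library 1 and 76.2% against 71.3% in library 2. The S phase shares were 14.4% against 21.1% and 15.4% against 20.3%. For the pooled top 10% the intervals of the G2/M share did not overlap in library 1 (75.1 to 84.8% against 68.7 to 73.0%), whereas for the 15% selections in thinned cells they did. All intervals cover counting error only, and no test over 2 libraries was made. A new top 15% was also taken among cells called G2/M, which gave 390 against 1081 cells in library 1. In that selection the log2 ratios were 1.55 for Egr1, 1.20 for Jun and -2.85 for Krt16.

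The libraries disagreed on the interferon response. All 11 interferon-stimulated genes measured in library 1 were above 0 in the early-high cells, with a median log2 ratio of 0.44, and in the companion selection 22 of 23 tested were higher in library 1 while 4 of 23 were in library 2. Isg15, a ubiquitin-like antiviral protein gene, stood at 132 against 58.8 CPM in library 1 and at 139 against 225 in library 2, and Oasl2, an RNA sensor relative, at 67.7 against 32.6 and 70.2 against 92.4. In both genes the selected cells stood at nearly the same level in each library, and the unselected cells differed. EdgeR called 0 of the 23 in either direction (Isg15 adjusted p = 0.755, Oasl2 adjusted p = 0.647). Of 15 clock genes, 1 rose, against 0.94% of all genes. It was Nr1d1, the repressor REV-ERBα, at 105 against 57.8 CPM and 220.4 against 158 (edgeR log2 fold change 0.68 ± 0.15 SE, adjusted p = 0.0012). Nr1d1 passed in 9 of 19 alternative settings.

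Several noncoding RNAs were among the genes with the largest rises. Neat1, the scaffold of nuclear paraspeckles (chr19:5824708-5845478, minus strand), stood at 1689 against 551 CPM in library 1 and 686 against 381 in library 2 (edgeR log2 fold change 1.27 ± 0.15 SE, adjusted p = 5.65e-15). Its log2 ratio in the early-high cells of library 1 was 1.37, and 1.498 against cells matched on depth, whereas that of Malat1 went from 0.75 to 0.47. Malat1 had log2 ratios of 1.05 in library 1 and 0.18 in library 2 (edgeR adjusted p = 0.0018), and passed in 7 of 19 settings. Kcnq1ot1, another nuclear transcript, had 0.89 and 0.05 (edgeR adjusted p = 0.0385), a call that passed in 1 of 19 settings. Gm20186, an unnamed gene model on chromosome 6 (chr6:18845910-18848207, minus strand), stood at 174 against 56.6 CPM in library 1 and 179 against 84.9 in library 2 (edgeR log2 fold change 1.37 ± 0.15 SE, adjusted p = 3.59e-16). Gm26532, another model of unknown function, stood at 145 against 70.2 CPM and 27.8 against 11.9, and the models Gm26802 and B930036N10Rik had edgeR log2 fold changes of 1.34 and 1.11. Hist1h2ac, a histone H2A gene, stood at 45.4 against 14.5 CPM in library 1 and 7.93 against 5.16 in library 2 (edgeR log2 fold change 1.37 ± 0.27 SE, adjusted p = 6.91e-05), and passed in 10 of 18 settings. Xist, the RNA that silences an X chromosome, stood at 1873 against 939 CPM and 1592 against 1211 (edgeR log2 fold change 0.73 ± 0.14 SE, adjusted p = 1.06e-04). The Y-linked genes Ddx3y and Eif2s3y were present in both libraries too, Ddx3y at 26.2 against 17.5 CPM in library 1 and 11.97 against 17.3 in library 2, and neither was called. The part of a mix of sexes in the Xist difference was not tested. Tsix overlaps Xist on the opposite strand and was also called higher. The strand setting of the counting is not given in the sources used here. Whether reads of this pair were kept apart is therefore not known.

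Several of these genes were then followed across all corneal cells of each library, sorted by their share of the 5 selecting genes and cut into 5 equal parts, as a description of what lies below the cut. Jun stood at 618 CPM in the lowest quintile of library 1 and rose through 1779, 2450.1 and 3245 to 5090.3 in the highest, and in library 2 from 248 to 2000.2. Egr1 ran from 19.8 to 206 CPM in library 1 and from 22.1 to 245 in library 2. Both genes increased at every step in both libraries, and the early-high cells lie at the upper end of that range. Hspa1a climbed from 266 to 1127 CPM in library 1 and stayed between 107 and 140.1 in library 2.

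The wound keratins Krt6a and Krt16 followed another shape. Krt6a was at 1519, 2385, 2139, 1203 and 663 CPM over the quintiles of library 1 and at 749.8, 1157, 816, 530.2 and 399 over those of library 2. Krt16 was at 419 CPM in the lowest quintile of library 1, 567 in the second and 81.8 in the highest, and at 74.1, 237 and 14.1 in those of library 2. In both libraries Krt6a and Krt16 were highest in the second quintile and lowest in the quintile with the most early RNA. Krt17 had no such peak in library 1, at 574 CPM in the lowest quintile, 482 in the second and 104 in the highest. In library 2 Krt17 was highest in the second quintile, at 174 CPM. Malat1 was at 12829 CPM in the lowest and 26877 in the highest quintile of library 1, but between 12881 and 15183 over all quintiles of library 2. The median depth was 5534, 6542, 6922, 5823 and 4481.5 UMIs over the quintiles of library 1, so its highest quintile was also its shallowest; in library 2 the shallowest was the lowest quintile, at 5114 UMIs, and the highest held 6604.

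**Figure D4:**
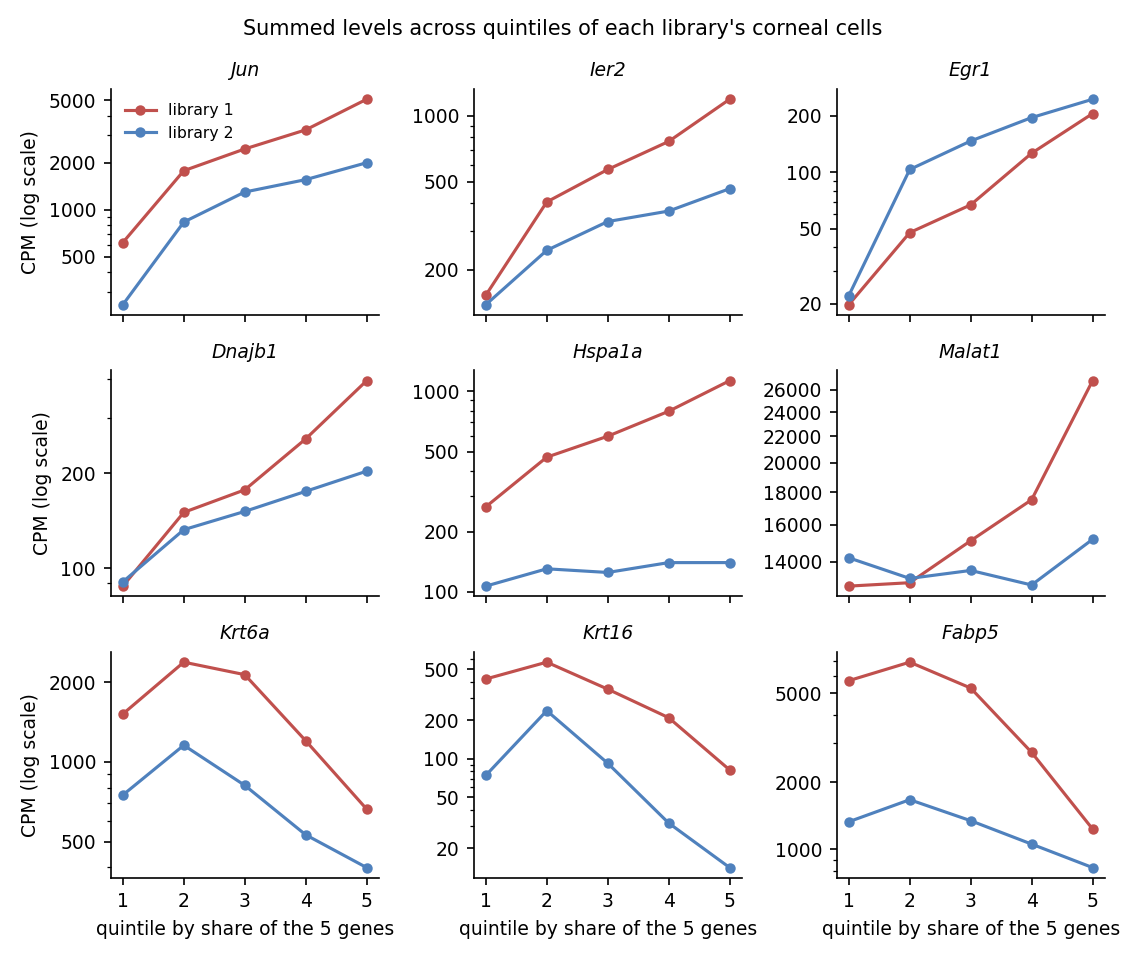
Summed level (y axis, CPM, log scale) of 9 genes across quintiles of each library's corneal cells sorted by the share of the 5 selecting genes (x axis, from lowest to highest). Jun and Egr1 increase at each step in both libraries, Hspa1a climbs from 266 to 1127 CPM in library 1 and stays at 140.1 or below in library 2, and Krt6a and Krt16 peak in the second quintile of both.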

How the data were processed

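The deposited matrix holds whole-number UMI counts, not normalized, for 31053 genes and 6752 barcodes in 2 libraries of 19001107 and 18030874 UMIs. Cell Ranger 3.1.0, Seurat 5.0.0 and the builds GRCm38 and mm10 are named in the submitters' processing notes; no label or header used here gives the cell calling, the strand setting or any depth equalisation. Libraries were read from barcode endings, which the labels do not link to replicates.

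Members and gene lists (22 lists, 436 entries, 4 not in the matrix) were chosen with earlier results of these data known. The planned test of the pooled selection needed at least 10 members per library. Library 2 had 9, so the selection within each library, planned as an alternative, was tested instead, a choice made after seeing the data. Counts were summed per library and side (4 sums) without the 5 selecting genes. They were tested with edgeR 4.0.16 in R 4.3.3 (TMM, filterByExpr, robust quasi-likelihood, library as block, because both sums of a library come from the same cells' preparation), with Benjamini-Hochberg adjusted p under 0.05 as the threshold; DESeq2 1.42.0 was an alternative. The fit was tested on simulated data. Log2 ratios within 1 library used TMM-scaled CPM with a pseudocount of 1. Genes were named by rule: up to 12 per direction with the largest called change, the same sign in both libraries and 20 CPM or more, and up to 4 called members per list (otherwise 2) with the highest level. Further names stand only in list counts or are marked in the text; Klf2, Ppp1r15a, Errfi1 and other members named beside a motif or a range were chosen after their values were seen. Depth was handled by drawing other cells to match the members' deciles of total UMIs and by thinning cells to 2000 UMIs. Scrublet marked 5 of 6188 cells (0.0808%), too few to have worked, so doublets remain, and leaving out the 3% with the highest score was tried. Phases were called with scanpy 1.11.5. Gene positions are from GENCODE M21 (GRCm38). The result of 1 gene is not reported here.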

Additional observations from a re-analysis of the deposited data

How the results depend on the processing

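For the 610 early-high cells of library 1, the 38 genes at least 2-fold higher became 84 with the selection made in each library, 59 with the top 10%, 16 with at least 1000 detected genes and 24 in cells called G2/M. The 45 lower genes became 85 with the selection in each library, 23 with depth-matched others and 26 in cells called G2/M. Library 1's 98.5% of members became 55.9% when selected in each library, a share that this selection fixes, and 97.1% without Fosb, and the G2/M share became 80.3% with the top 10%. For edgeR in each library, 103 higher and 82 lower genes became 0 and 0 with no replicate block, 15 and 11 with DESeq2, 22 and 12 with the top 10%, 31 and 27 with the top 20%, 27 and 32 with a mitochondrial limit of 10%, and 17 and 17 with Krt12 above 0.9. They became 68 and 35 without Fos, 46 and 38 without Fosb, 18 and 27 without Dusp1, 37 and 28 with depth-matched others, 67 and 37 with thinned cells, 27 and 26 without the highest Scrublet scores, and 59 and 48 in cells called G2/M. With at least 1000 genes the lower count was 126. The cause of these changes was not tested. Log2 ratios changed sign for Krt13 in thinned cells of library 1 (0.15), and between the libraries taken alone for Cldn4 (1.07 in library 1, -0.16 in library 2). Of 1336 values of named genes in the comparison within each library, 352 kept their direction but lost the call. Tests on the pooled selection were not run, since library 2 had 9 members, and leaving out a library gives values without a test.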
